A study of Mus musculus with 12 samples.

Results

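The 10 transcription factor genes described here, *Klf2*, *Klf4*, *Klf5*, *Esrrb*, *Nr5a2*, *Nr0b1*, *Tfcp2l1*, *Tbx3*, *Prdm14* and *Zfp42*, are associated with the naive pluripotent state of mouse embryonic stem cells. They were chosen by name, as the rows of the count table with these symbols, and are 10 of the 42450 genes listed. All 10 passed the filter on low counts, which kept 19410 genes for testing. The cells were E14tg2a.4, a male mouse embryonic stem cell line, in serum-free ESGRO medium with LIF. They received 50 nM siRNA against *Srrm2*, which encodes a spliceosome-associated protein of nuclear speckles (Srrm2-KD), or against firefly luciferase, which mouse cells lack (Gl2-KD). Cells were collected at 24 h, or were transfected again with the same siRNA and collected at 72 h, so that time in this medium and the second transfection cannot be told apart. Each of 3 experiments held all 4 combinations of siRNA and time, which gave 12 polyA+ RNA-seq libraries, and the question was how acute loss of *Srrm2* transcripts alters expression.

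Naive pluripotency is the state of the epiblast before implantation and of mouse embryonic stem cells kept with LIF. LIF acts through STAT3 and Wnt signalling acts by relieving repression by TCF7L1, and both feed a set of partly redundant transcription factors that sustain self-renewal together with POU5F1, SOX2 and NANOG. On exit from this state, when FGF and ERK signalling prevail, these factors decline and genes of the formative and primed states, such as *Otx2*, *Pou3f1* and *Fgf5*, rise.

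Promoter sequences were available for 7 of the 10 genes (RefSeq, GRCm38.p6), in 9 windows of 250 bases before and 50 bases after a transcription start, and *Klf5*, *Tbx3* and *Prdm14* had no entry. The 250 bases before the start are printed for *Tfcp2l1*, which was lower in every paired comparison with *Srrm2* siRNA, for *Zfp42*, which was higher in every one, and for *Nr0b1*, which passed the test between times. They lie at chr1:118627695-118627944 on the plus strand, chr8:43307010-43307259 on the minus strand and chrX:86191525-86191774 on the plus strand, and are written 5′ to 3′ along the gene, with motif matches in capitals.
*Tfcp2l1*: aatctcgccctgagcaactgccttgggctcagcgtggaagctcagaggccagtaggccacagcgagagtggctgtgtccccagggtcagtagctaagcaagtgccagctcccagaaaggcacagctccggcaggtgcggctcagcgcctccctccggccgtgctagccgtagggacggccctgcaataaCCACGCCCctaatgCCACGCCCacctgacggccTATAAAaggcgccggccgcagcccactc
*Zfp42*: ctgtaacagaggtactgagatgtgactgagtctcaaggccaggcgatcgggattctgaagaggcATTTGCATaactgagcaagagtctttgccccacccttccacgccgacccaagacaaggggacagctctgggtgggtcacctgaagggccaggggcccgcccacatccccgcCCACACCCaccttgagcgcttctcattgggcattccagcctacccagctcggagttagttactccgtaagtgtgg
*Nr0b1*: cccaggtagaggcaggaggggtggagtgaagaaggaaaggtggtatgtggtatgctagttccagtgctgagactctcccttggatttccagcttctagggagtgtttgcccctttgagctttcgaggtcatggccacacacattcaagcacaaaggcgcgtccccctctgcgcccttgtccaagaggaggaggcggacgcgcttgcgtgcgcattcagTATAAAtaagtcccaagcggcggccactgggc
The motifs were searched on both strands as the letters GGGNGTGG for KLF factors, AAGGTCA for nuclear receptors such as ESRRB and NR5A2, TTCNNNGAA for STAT factors, ATCAAAG for TCF factors, ATTTGCAT for octamer-binding factors and TATAAA for a TATA box. The *Tfcp2l1* promoter held the KLF letters at 2 positions, -61 and -47 relative to the start, both on the minus strand and so printed as CCACGCCC, and TATAAA at -28. In the *Zfp42* promoter, ATTTGCAT lay at -186 and the KLF letters at -75, on the minus strand and printed as CCACACCC. Unlike the other windows, the end of the *Zfp42* window was not found near the start of a GENCODE M21 transcript. Its positions therefore hold for the RefSeq start only. The *Nr0b1* promoter held TATAAA at -32. Of 32817 promoter windows of the same length, 17.6% held the KLF letters, 13.6% TATAAA, 8.29% the STAT letters, 4.72% AAGGTCA, 3.73% ATCAAAG and 1.74% ATTTGCAT. Of the remaining windows, one of *Esrrb* held the STAT letters at -178, and those of *Nr5a2* held a KLF match at -157 and a TATAAA match on the minus strand at -181. No matches overlapped one another, and 3 of the 9 windows held none of the letters searched. A match describes letters in a window and is not evidence of binding.

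The targeted gene and the state of the libraries were examined first. *Srrm2* had 911, 496 and 449 CPM (estimated counts scaled to library size, with TMM factors) in experiments 1, 2 and 3 of Gl2-KD at 24 h, and 517, 154 and 199.8 in Srrm2-KD. At 72 h the values were 962, 479 and 442 CPM in Gl2-KD and 461, 182 and 217 CPM in Srrm2-KD. *Srrm2* was lower in every pair of libraries from the same experiment and time, by -1.19 ± 0.10 (SE) on the log2 scale in the mean of both times (edgeR adjusted p = 0.00254), a call that was lost without experiment 2 or 3 (adjusted p = 0.0899 and 0.102). Within a time point *Srrm2* itself missed the threshold in this fit, with -1.22 ± 0.14 at 24 h (adjusted p = 0.0663) and -1.16 ± 0.14 at 72 h (adjusted p = 0.0991). In experiment 1 with *Srrm2* siRNA it stayed at the level of the controls of experiments 2 and 3. Estimated counts summed to 73933196 to 153343831 per library, and no value of the 10 genes rested on fewer than 1438 counts. The 8 embryonic stem cell markers had a summed level of 4510 to 7193 CPM, with none of them under 1 CPM in every library. Summed over each list, markers of mesendoderm (3.35 to 8.25 CPM, 4 of 6 genes under 1 CPM throughout), primitive and parietal endoderm (2.29 to 4.90 CPM, 4 of 7), 2-cell-like cells (1.58 to 15.2 CPM, 2 of 4), fibroblasts (5.74 to 26.7 CPM, 2 of 5), neural cells (45.3 to 62.8 CPM, 1 of 4) and trophectoderm (78.8 to 221 CPM, 3 of 6) were far lower. These are bulk samples, in which fewer cells of a type and less RNA per cell cannot be told apart.

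All 10 genes were transcribed in every library, at levels that differed widely between genes. Levels can be compared between genes only per length, so CPM were divided by the exonic length of each gene in kilobases. In Gl2-KD at 24 h, *Zfp42* led with 300.2 ± 10.1 CPM per kb (SD, n = 3), followed by *Klf2* with 105 ± 13.3, *Esrrb* with 101 ± 21.1 and *Nr0b1* with 83.9 ± 18.8 CPM per kb. *Klf4* (48.0 ± 24.5), *Klf5* (38.9 ± 9.36) and *Tfcp2l1* (38.7 ± 20.7 CPM per kb) formed a middle group. *Nr5a2* (14.0 ± 5.10), *Prdm14* (10.6 ± 4.38) and *Tbx3* (7.79 ± 4.97 CPM per kb) were lowest. Among neighbours in this order, only *Zfp42* and *Klf2*, and *Tfcp2l1* and *Nr5a2*, had libraries that did not overlap. Within a gene the highest of the 12 libraries exceeded the lowest by 1.61 times for *Zfp42*, the steadiest, and by 4.53 times for *Tbx3*, the most variable.

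**Figure D1:**
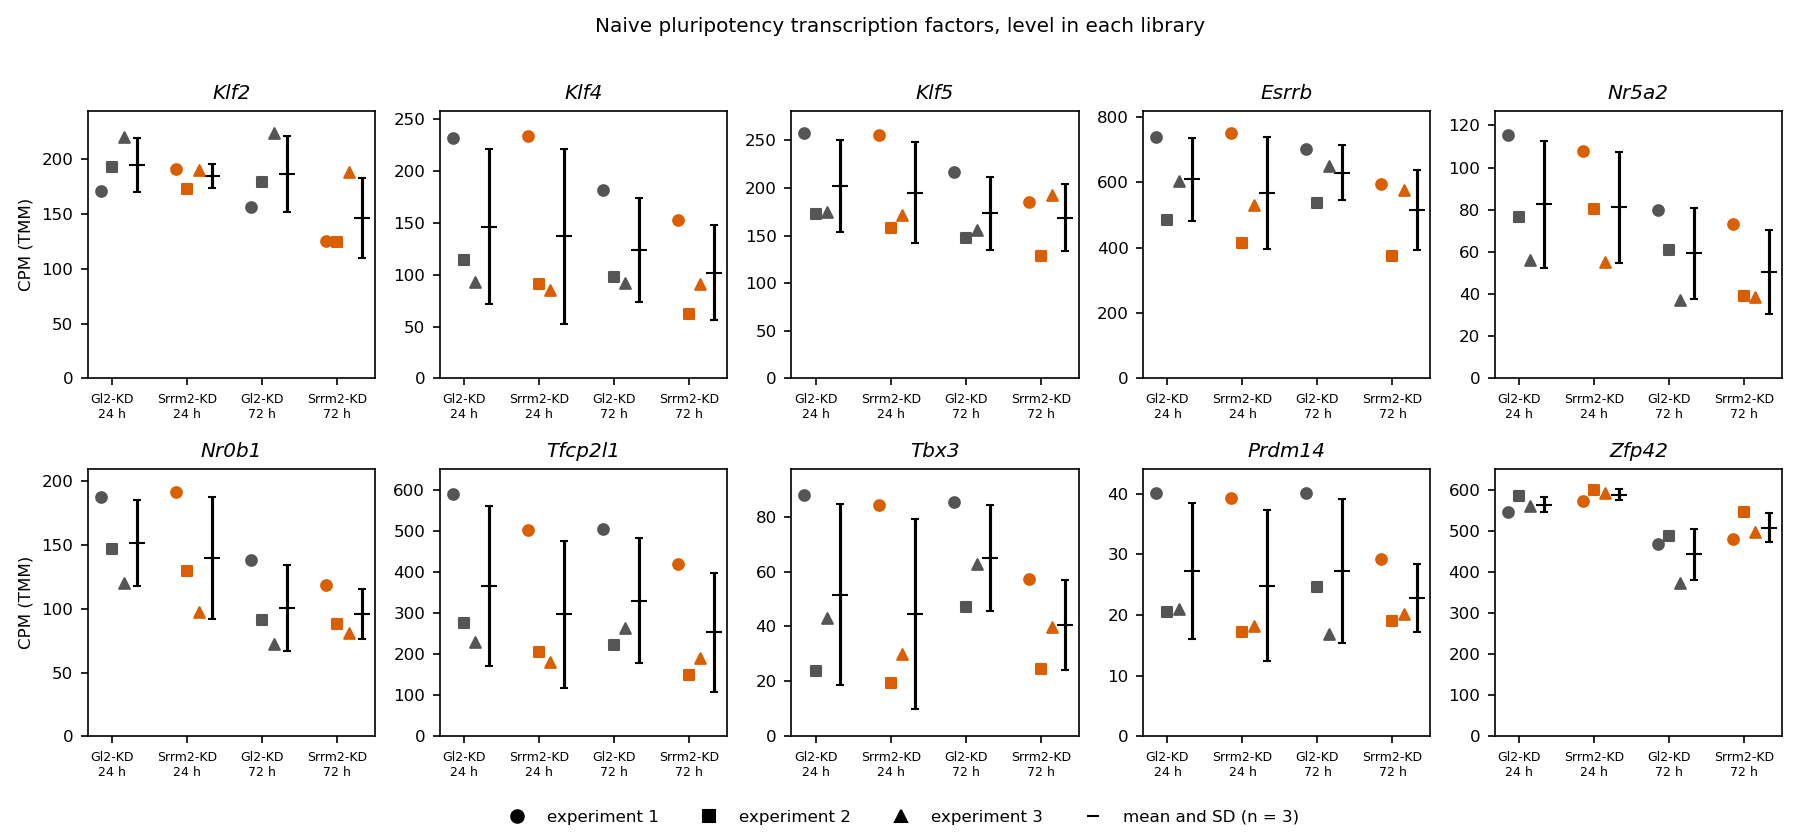
Level of each gene in CPM (TMM-scaled, linear axis from 0) in the 12 libraries, grey for Gl2-KD and orange for Srrm2-KD, with symbols for the 3 experiments and black bars for mean and SD (n = 3). *Tbx3* ranged from 19.4 to 87.9 CPM with experiment 1 highest in every group, while *Zfp42* stayed between 373 and 599.5 CPM.

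Each group held 1 library per experiment, so every difference within a group is also one between experiments. Experiment 1 had the highest level in 4 of 4 groups for 7 genes, *Klf4*, *Esrrb*, *Nr5a2*, *Nr0b1*, *Tfcp2l1*, *Tbx3* and *Prdm14*. The share of all tested genes with this pattern was 23.2%. Against the mean of experiments 2 and 3, edgeR's quasi-likelihood F-test, adjusted by the Benjamini-Hochberg method, called 8 of the 10 genes higher in experiment 1 (adjusted p at most 8.97e-04), where it called 53.4% of all tested genes in either direction and 27.3% higher. The differences on the log2 scale were 1.24 ± 0.09 (SE) for *Tfcp2l1*, 1.22 ± 0.15 for *Tbx3*, 1.13 ± 0.11 for *Klf4*, 0.92 ± 0.11 for *Prdm14*, 0.79 ± 0.09 for *Nr5a2*, 0.63 ± 0.07 for *Nr0b1*, 0.49 ± 0.09 for *Klf5* and 0.44 ± 0.08 for *Esrrb*. *Klf2* ran the other way without passing the test, at -0.21 ± 0.09 (edgeR adjusted p = 0.0690). It passed the test, at -0.32, -0.27 and -0.25, when Srrm2-KD at 24 h of experiment 1, Srrm2-KD at 24 h of experiment 3 or Srrm2-KD at 72 h of experiment 2 was left out (adjusted p = 0.0125, 0.0166 and 0.0355, within 0.0125 to 0.397 over all settings). *Zfp42* differed by -0.03 ± 0.07, with a 95% confidence interval of -0.18 to 0.13, and its sign turned with the scaling and the filter (0.08 with library totals only). *Srrm2* was also higher in experiment 1, by 1.20 ± 0.10, while the summed stem cell markers were 4510 to 5276 CPM there against 5858 to 7193 CPM in the others, and the fibroblast markers 5.74 to 9.10 against 11.9 to 26.7 CPM. A sum can rest on its most abundant genes. Of the 4 core pluripotency factors, 3 had log2 differences above 0 in experiment 1 and 1 had a difference below 0. These ran from -0.40 for *Pou5f1* to 0.36 for *Sall4*, with a median of 0.20. The summed primitive and parietal endoderm markers were higher in experiment 1, at 3.94 to 4.90 against 2.29 to 3.72 CPM. Their part in the differences was not tested, and 1 experiment has no replicate of its own, so the test measures only the spread between libraries.

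**Figure D2:**
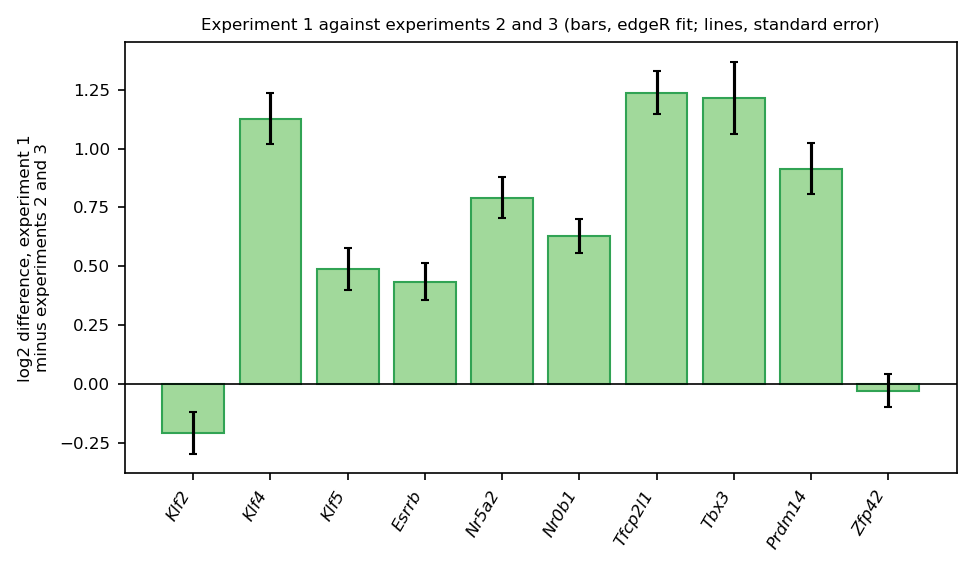
Log2 difference of each gene between experiment 1 and the mean of experiments 2 and 3 over the 12 libraries; bars are edgeR estimates and lines their standard errors. Bars of 8 genes stand above 0, up to 1.24 for *Tfcp2l1*, while *Klf2* and *Zfp42* lie below it.

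Next, the effect of *Srrm2* siRNA was compared within each time point, with the experiment as a block. None of the 10 genes passed the test at 24 h or at 72 h, but with a separate block for each experiment and time point *Tbx3* and *Tfcp2l1* passed it at 72 h (edgeR adjusted p = 0.0242 and 0.0277), among 724 genes called in all. At 72 h, 9 of the 10 estimates were below 0, as were 52.1% of all tested genes, with a median of -0.26 on the log2 scale against -0.02 over all tested genes, and *Tbx3*, *Tfcp2l1*, *Klf2* and *Esrrb* had the lowest values. The 24 h estimates were also below 0 for 9 of the 10, as were 48.7% of all tested genes. Their median was -0.13, against 0.005 over all tested genes. With the experiment alone as the block, edgeR called 0 of 19410 genes in either comparison (background 0.0%), *Srrm2* included, so the absence of calls says nothing particular about the 10 genes. At 24 h, unadjusted p values below 0.05 were found for 508 genes (2.62%), of which *Tfcp2l1* was the only one among the 10, while DESeq2 called 25 genes, limma-voom called 2 and neither called any of the 10. At 72 h they were found for 2498 genes, while 542 were called by DESeq2, with *Tbx3* among them, and 4 by limma-voom, with none of the 10. *Tbx3*, *Tfcp2l1*, *Klf2* and *Esrrb*, 4 of the 10, were lower at 72 h with an unadjusted p below 0.05, as were 7.86% of all tested genes. Together with *Klf4* they were the 5 genes lower in 3 of 3 experiments, where the share of all tested genes was 23.1%.

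The 3 KLF genes encode related zinc finger proteins that bind GC-rich sites and can stand in for one another in embryonic stem cells. *Klf2* (chr8:72319033-72321656, GRCm38), whose protein ERK signalling destabilises, had 171, 193 and 220.0 CPM in experiments 1, 2 and 3 of Gl2-KD at 24 h and 191, 172 and 190.0 CPM in Srrm2-KD. At 72 h it had 156, 179 and 224 CPM in Gl2-KD and 126, 124 and 189 CPM in Srrm2-KD. *Klf2* was lower with *Srrm2* siRNA in each experiment at 72 h but not at 24 h, and the groups overlapped at both times. The log2 fold change was -0.06 ± 0.12 (SE) at 24 h and -0.36 ± 0.12 at 72 h (edgeR adjusted p = 0.257). *Klf4* (chr4:55527143-55532466), a direct STAT3 target, had 182, 97.6 and 92.1 CPM in Gl2-KD and 152, 62.4 and 90.9 CPM in Srrm2-KD at 72 h. It was lower in each experiment, but experiment 3 moved by only -0.02 and experiment 2 by -0.65, and the estimate of -0.29 ± 0.15 was -0.14 without experiment 2 and -0.51 without Srrm2-KD at 72 h of experiment 3. *Klf5* (chr14:99298691-99315036) had 217, 147 and 156 CPM in Gl2-KD and 186, 128 and 192 CPM in Srrm2-KD, lower in experiments 1 and 2 and higher in experiment 3. Its estimate was -0.03 ± 0.12, with a 95% confidence interval of -0.30 to 0.24. At 24 h the estimates were -0.14 ± 0.15 for *Klf4* and -0.06 ± 0.12 for *Klf5*.

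The nuclear receptors differed among themselves. *Esrrb* (chr12:86361117-86521628), an orphan receptor induced by NANOG and repressed by TCF7L1, had 738, 483 and 604 CPM in Gl2-KD and 752, 415 and 531 CPM in Srrm2-KD at 24 h, and 702, 536 and 651 CPM and 594, 374 and 576 CPM at 72 h. It was lower with *Srrm2* siRNA in each experiment at 72 h, with overlapping groups, by -0.31 ± 0.11 (edgeR adjusted p = 0.276), after -0.12 ± 0.11 at 24 h. *Nr5a2* (chr1:136842571-136960448), a receptor that binds regulatory regions of *Pou5f1*, had 80.0, 61.1 and 37.0 CPM in Gl2-KD and 73.3, 39.2 and 38.4 CPM in Srrm2-KD at 72 h. The difference was largest in experiment 2, and the estimate of -0.23 ± 0.12 was -0.05 without that experiment and -0.38 without experiment 3. *Nr0b1* (chrX:86191764-86195947), which encodes a receptor-like protein without the usual DNA-binding domain that binds NR5A2 and POU5F1, had 138, 91.0 and 72.6 CPM in Gl2-KD and 118, 88.2 and 81.3 CPM in Srrm2-KD at 72 h. Its estimates were -0.15 ± 0.10 at 24 h and -0.03 ± 0.10 at 72 h, the latter with a 95% confidence interval of -0.25 to 0.18 and with experiment 3 higher in Srrm2-KD.

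*Tfcp2l1* and *Tbx3* were the only ones of the 10 that were lower with *Srrm2* siRNA in 6 of 6 pairs of libraries from the same experiment and time, as were 7.25% of all tested genes. *Tfcp2l1* (chr1:118627945-118685168), a CP2-family factor and STAT3 target, had 589.9, 276 and 231 CPM in Gl2-KD and 503, 205 and 182 CPM in Srrm2-KD at 24 h. At 72 h it had 504, 223 and 264 CPM in Gl2-KD and 419, 149 and 191 CPM in Srrm2-KD. Each library of Srrm2-KD lay under its partner, while the groups overlapped because experiment 1 was highest in both. The log2 fold change was -0.33 ± 0.13 at 24 h and -0.44 ± 0.13 at 72 h (edgeR adjusted p = 1 and 0.206, the latter 0.0277 with the block for experiment and time point). *Tbx3* (chr5:119670669-119684724), a T-box factor that lies downstream of LIF, had 87.9, 23.6 and 43.2 CPM in Gl2-KD and 84.1, 19.4 and 30.1 CPM in Srrm2-KD at 24 h. At 72 h it had 85.4, 47.0 and 62.6 CPM in Gl2-KD and 57.2, 24.6 and 40.0 CPM in Srrm2-KD. The log2 ratios within experiments 1, 2 and 3 were -0.58, -0.94 and -0.65 at 72 h, yet the groups overlapped. The estimate was -0.74 ± 0.21 (edgeR adjusted p = 0.201, or 0.0242 with the block for experiment and time point), the lowest of the 10 genes, after -0.27 ± 0.21 at 24 h.

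*Prdm14* and *Zfp42* completed the set. *Prdm14* (chr1:13113457-13127163), which represses FGF receptor and DNA methyltransferase genes, was low, with 40.2, 24.6 and 16.9 CPM in Gl2-KD and 29.2, 19.0 and 20.1 CPM in Srrm2-KD at 72 h. Experiments 1 and 2 were lower with *Srrm2* siRNA and experiment 3 was higher, and the estimate of -0.20 ± 0.15 had a 95% confidence interval of -0.53 to 0.13. *Zfp42* (chr8:43295063-43306980), known as Rex1 and widely used as a reporter of the naive state, had 548, 585 and 561 CPM in Gl2-KD and 573, 599.5 and 594 CPM in Srrm2-KD at 24 h. At 72 h it had 469, 489 and 373 CPM in Gl2-KD and 480.4, 548 and 497 CPM in Srrm2-KD. It was the only one of the 10 that was higher with *Srrm2* siRNA in 6 of 6 pairs, as were 7.0% of all tested genes, but it did not pass the test, with 0.06 ± 0.09 at 24 h and 0.20 ± 0.10 at 72 h (edgeR adjusted p = 0.414).

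**Figure D3:**
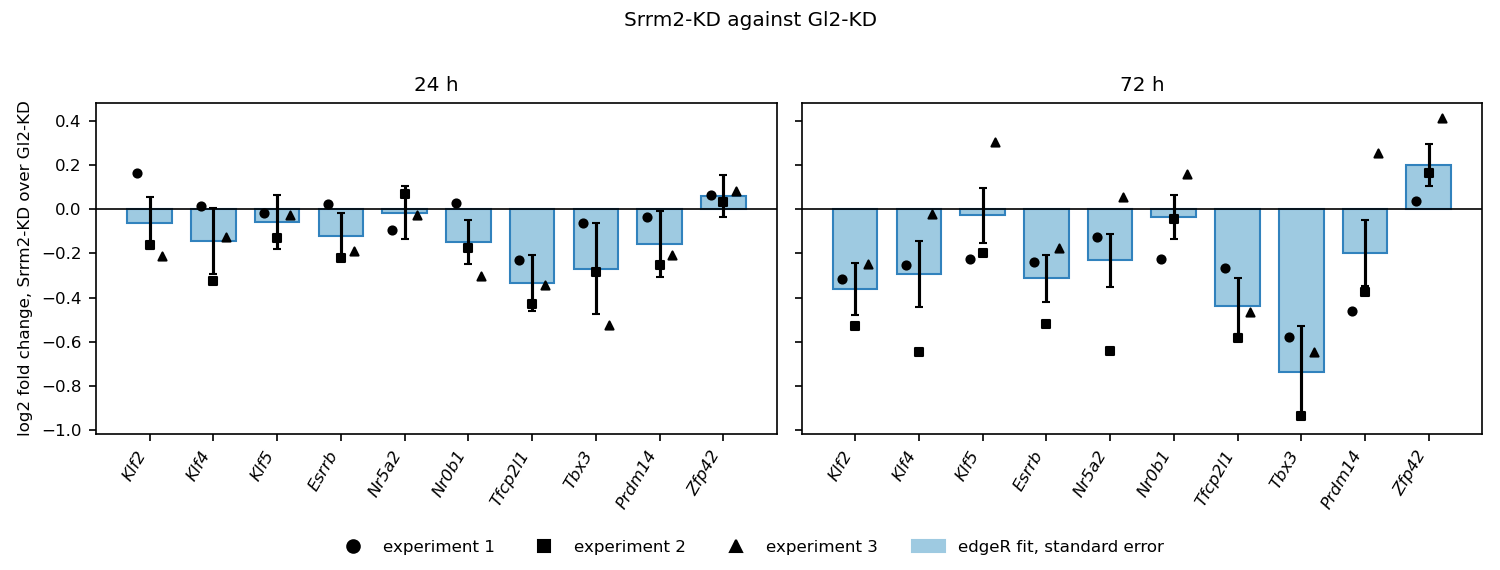
Log2 fold change of Srrm2-KD over Gl2-KD for each gene with 24 h in the left panel and 72 h in the other; bars are edgeR estimates with standard errors and symbols the ratios within each experiment. At 72 h all symbols of *Tbx3* and *Tfcp2l1* lie below 0, from -0.27 to -0.94, and those of *Zfp42* lie above it.

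Averaged over both times, the log2 fold change was -0.39 ± 0.09 for *Tfcp2l1* (edgeR adjusted p = 0.114) and -0.50 ± 0.15 for *Tbx3* (adjusted p = 0.179), and 0 of the 10 genes were called, against 13 of 19410 genes (0.067%), a number that ran from 0 to 288 when 1 library or experiment was left out. In this average 4 of the 10, *Tfcp2l1*, *Tbx3*, *Esrrb* and *Klf2*, were lower with an unadjusted p below 0.05, as were 7.85% of all tested genes. DESeq2 called 733 genes, *Tbx3* and *Tfcp2l1* among them, and limma-voom called 92 and none of the 10. *Tbx3* passed the test when 1 library or experiment was left out: Srrm2-KD at 24 h of experiment 1 (-0.66, adjusted p = 0.0305) or all of experiment 1 (-0.60, adjusted p = 0.0447). With a separate block for each experiment and time point, the log2 fold changes at 72 h of *Tbx3* and *Tfcp2l1* stayed at -0.72 and -0.44 and the adjusted p ranged from 0.0242 to 1 and from 0.0277 to 1 over all settings, while with that block 3.73% of all tested genes were called. The difference between the effects at 72 h and at 24 h was tested as an interaction. It called 0 genes in all (background 0.0%, 319 genes or 1.64% with an unadjusted p below 0.05, 2 called by DESeq2 and 0 by limma-voom), and none of the 10 had an unadjusted p below 0.05. For *Tbx3* it was -0.47 ± 0.29, with a 95% confidence interval of -1.12 to 0.18, and for *Klf2* it was -0.30 ± 0.17, with -0.66 to 0.07.

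Genes that feed these factors or succeed them were followed at 72 h in lists that were chosen with earlier results known, and edgeR called none of them for *Srrm2* siRNA at either time with the experiment as the block. The 11 formative and primed state genes all had estimates above 0, from 0.02 for *Sox3* to 0.84 for *Dnmt3a*, a de novo DNA methyltransferase, with a median of 0.39. Of these, 7 had an unadjusted p below 0.05, where 5.01% of all tested genes were higher with such a p. With the block for each experiment and time point, 4 of the 11 were called higher at 72 h, *Dnmt3a*, *Lef1*, *Otx2* and *Pou3f1*, as was *Dppa2* of the naive-state effectors, and *Pim1* was called lower. These genes are named for that call, and *Lef1* is also on the list of Wnt and TCF input. The share of all tested genes called with that block, in either direction, is given above. The 4 core pluripotency factors were all slightly below 0, with a median of -0.14 and *Sall4* lowest at -0.20. The 12 naive-state effector and marker genes lay on both sides of 0, with a median of 0.10, from -0.33 for *Dppa5a* to 0.43 for *Dppa3*. Medians were -0.03 for 9 genes of LIF and STAT3 input, where the STAT3 target *Pim1* was lowest at -0.71 and the receptor gene *Lifr* highest at 0.25, -0.04 for 7 genes of Wnt and TCF input, with *Lef1* highest at 0.81, and 0.19 for 10 genes of FGF and ERK input, from -0.42 for *Egr1* to 0.41 for *Etv4*. The 13 other KLF genes had a median of -0.02, between -0.71 for *Klf15* and 0.90 for *Klf12*. Of the other relatives of the members and *Cbfa2t2*, a partner of PRDM14, 13 of 15 were tested and had a median of -0.16. Their estimates ran from -1.80 for *Tfcp2* to 0.63 for *Tbx5*.

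**Figure D4:**
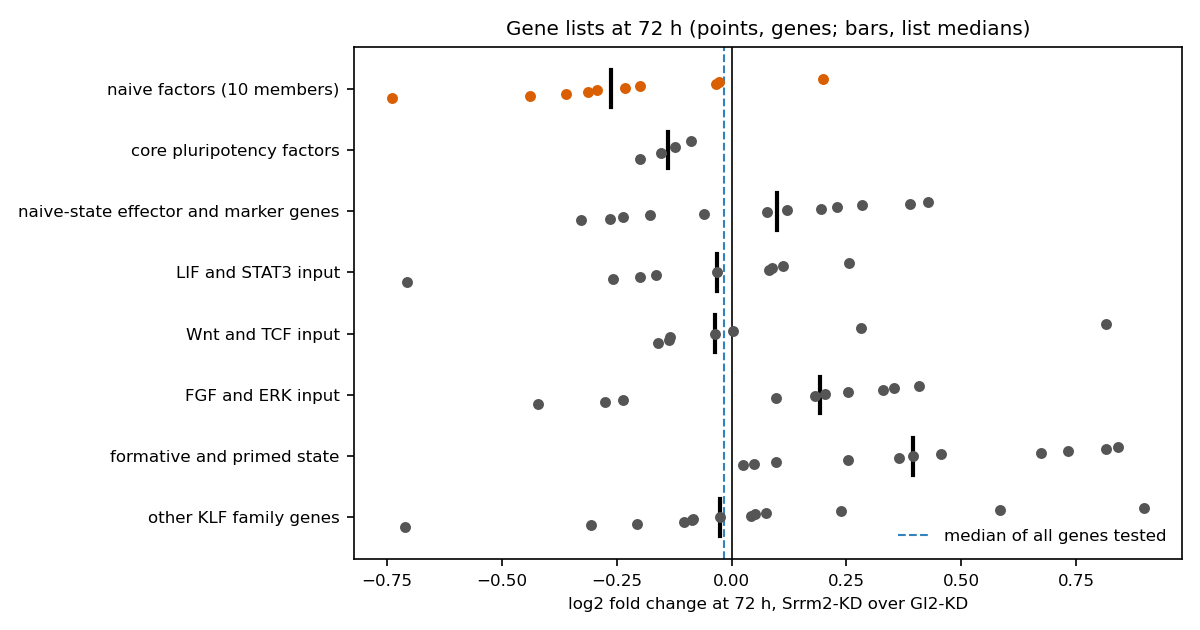
Log2 fold change of Srrm2-KD over Gl2-KD at 72 h; each point is a gene, each black bar the median of its list and the dashed line the median of all tested genes (-0.02). The naive factors (orange) have a median of -0.26 and the formative and primed state genes a median of 0.39, and with the experiment as the block no gene shown passed the test.

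Finally, 72 h was compared with 24 h within each siRNA. *Nr5a2*, *Nr0b1* and *Zfp42* were lower at 72 h in 6 of 6 pairs, as were 7.96% of all tested genes. In Gl2-KD, edgeR called 1 of the 10 genes, *Nr0b1*, which fell, where it called 1.45% of all tested genes and 0.706% as lower. In Srrm2-KD it called *Nr5a2* alone, which fell, where it called 0.551% of all tested genes and 0.361% as lower. Both backgrounds depended on which library or experiment was left out. In Gl2-KD, 282 genes were called in all, but 2, 3 and 81 without Gl2-KD at 24 h of experiments 1, 2 and 3, 0 and 60 without Gl2-KD at 72 h of experiments 2 and 3, 101 without Srrm2-KD at 24 h of experiment 2, and 0 and 87 without experiments 2 and 3. The other fits without 1 library or experiment called 224 to 387 genes in Gl2-KD. In Srrm2-KD, 107 genes were called, but 0 to 43 in each fit without 1 library except Gl2-KD at 72 h of experiment 3 (93). Without experiments 1, 2 and 3 as a whole, 135, 0 and 90 genes were called there.

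*Nr0b1* had 188, 147 and 120.4 CPM in Gl2-KD at 24 h and 138, 91.0 and 72.6 CPM at 72 h, lower in each experiment but with overlapping groups. The log2 fold change was -0.62 ± 0.10 (edgeR adjusted p = 0.0214). In Srrm2-KD it had 192, 130.1 and 97.7 CPM at 24 h and 118, 88.2 and 81.3 CPM at 72 h, with an estimate of -0.51 ± 0.10 that missed the threshold (adjusted p = 0.0554). The call in Gl2-KD was lost without any 1 of the Gl2-KD libraries at 24 h of experiments 1, 2 and 3 (adjusted p = 0.0597, 0.146 and 0.0689) or at 72 h of experiments 2 and 3 (0.148 and 0.0785), and without experiment 2 or 3 as a whole (0.521 and 0.0853). In these fits *Nr0b1* had log2 fold changes of -0.57 to -0.68, and over all settings its adjusted p ranged from 1.91e-06 with DESeq2 to 1 without the replicate block.

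*Nr5a2* had 108, 80.2 and 55.1 CPM in Srrm2-KD at 24 h and 73.3, 39.2 and 38.4 CPM at 72 h, lower in each experiment with overlapping groups. The log2 fold change was -0.69 ± 0.12 (edgeR adjusted p = 0.0467). In Gl2-KD it had 115, 76.4 and 56.1 CPM at 24 h and 80.0, 61.1 and 37.0 CPM at 72 h, with an estimate of -0.48 ± 0.12 that missed the threshold (adjusted p = 0.0734). The call in Srrm2-KD lay close to the threshold and was kept by 1 of the 15 fits that left out a library or an experiment, the one without Gl2-KD at 72 h of experiment 3 (adjusted p = 0.0447). In the other fits without 1 library or experiment the log2 fold change of *Nr5a2* was -0.55 to -0.80, and without the replicate block it was -0.69 (adjusted p = 1.00, within 5.47e-05 to 1.00 over all settings). Whether either gene fell more with one siRNA than with the other is the interaction given above, which was -0.22 ± 0.17 for *Nr5a2* and 0.11 ± 0.14 for *Nr0b1*, neither past the threshold.

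*Zfp42* was the only gene of the 10 whose libraries at 72 h all lay below those at 24 h, in Gl2-KD and in Srrm2-KD alike, as the values above show. Such a separation downwards was found for 3.36% of all tested genes in Gl2-KD and for 3.9% in Srrm2-KD. Its estimates of -0.35 ± 0.10 in Gl2-KD and -0.22 ± 0.10 in Srrm2-KD did not pass the test (edgeR adjusted p = 0.0926 and 0.293). In Srrm2-KD, 5 of the 10 were lower with an unadjusted p below 0.05, where the share of all tested genes was 8.54%. In Gl2-KD, *Nr5a2*, *Nr0b1* and *Zfp42* were lower and *Tbx3* was higher with such a p, against 7.21% and 9.59% of all tested genes. In Srrm2-KD the others besides *Nr5a2*, *Nr0b1* and *Zfp42* were *Klf2*, with -0.37 ± 0.12, and *Klf4*, with -0.35 ± 0.15, while *Klf5* had -0.19 ± 0.12. *Tbx3* went the other way in Gl2-KD, with 0.51 ± 0.21 (adjusted p = 0.243), higher in experiments 2 and 3, and passed the test at 0.76 when experiment 1 was left out (adjusted p = 0.0407). In Srrm2-KD *Tbx3* stood at 0.04 ± 0.21. *Esrrb*, *Tfcp2l1* and *Prdm14* stayed between -0.22 and 0.06 under both siRNAs.

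**Figure D5:**
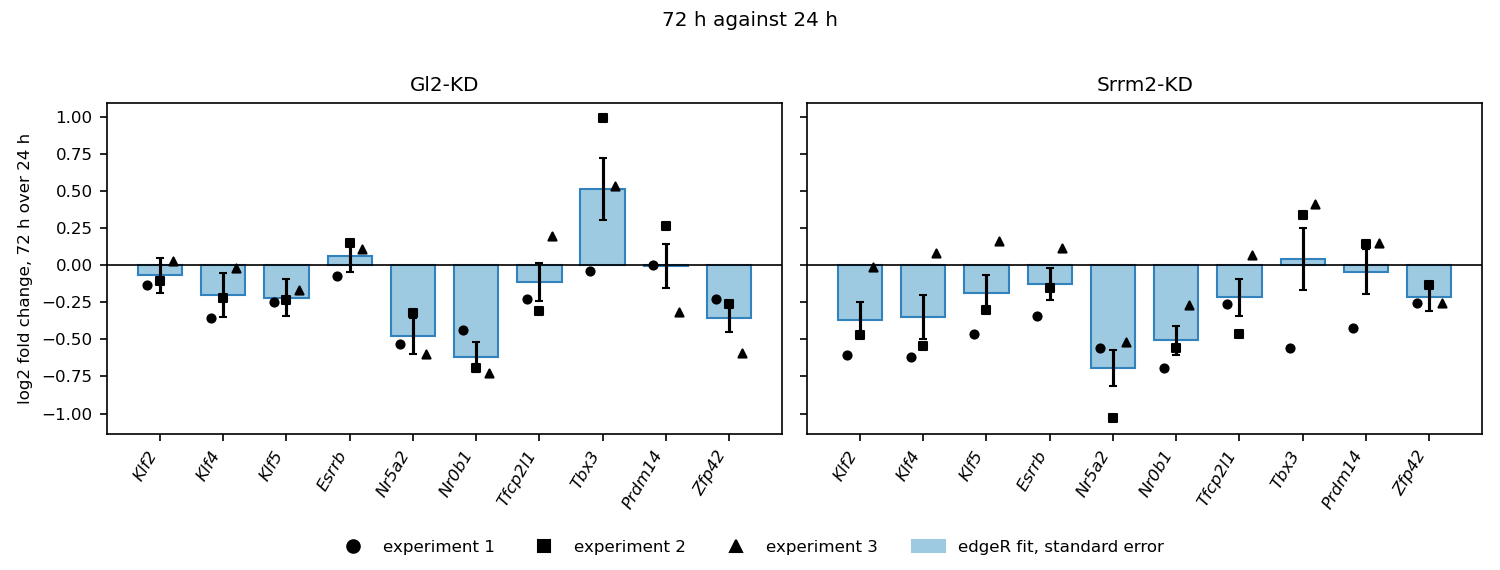
Log2 fold change of 72 h over 24 h for each gene in Gl2-KD (left) and Srrm2-KD (right); bars are edgeR estimates with standard errors and symbols the ratios within each experiment. All symbols of *Nr5a2*, *Nr0b1* and *Zfp42* lie below 0 in both panels, and *Tbx3* in Gl2-KD has the highest bar (0.51).

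Among the genes of the lists, *Foxd3*, a forkhead factor of embryonic stem cells, fell from 24 h to 72 h under both siRNAs, with log2 fold changes of -1.31 ± 0.12 in Gl2-KD and -0.91 ± 0.12 in Srrm2-KD (edgeR adjusted p = 0.00407 and 0.0317). In Gl2-KD, edgeR also called the Wnt target *Sp5* (-0.97, adjusted p = 0.0485), the naive-state marker *Gbx2* (-1.01, adjusted p = 0.0321) and *Tcf15* (-0.68, adjusted p = 0.0245), all lower. With *Foxd3*, these were 2 of 11 formative and primed state genes, 1 of 12 naive-state genes and 1 of 7 of Wnt and TCF input. Of all tested genes, 0.706% were called lower in Gl2-KD and 0.361% in Srrm2-KD, and the lists were chosen with earlier results known. Of the 15 fits that left out a library or an experiment, 13 kept the call of *Foxd3* in Gl2-KD and 5 that in Srrm2-KD, 8 kept *Tcf15*, 6 *Gbx2* and 2 *Sp5*. The call of *Foxd3* in Gl2-KD was lost without Gl2-KD at 72 h of experiment 2 (adjusted p = 0.0900) and without experiment 2 (adjusted p = 0.501). Without the replicate block edgeR called none of them. No gene of the lists was called higher in either comparison.

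The profiles of the 10 genes over the 12 libraries were also matched against the 12824 genes with a mean of at least 1 CPM that are not members. The measure was the root mean square difference of log2(CPM + 1) values centred on their mean, given as a description. *Klf2* was nearest to *Anapc2* (0.0520), *Klf5* to *Ddhd2* (0.0825), *Esrrb* to *Nsd2* (0.0765), *Nr5a2* to *Hipk2* (0.0995) and *Nr0b1* to *Dpysl3* (0.0901). *Klf4* and *Tfcp2l1* shared the nearest gene, *Tacc1*, at 0.110 and 0.116. The largest distance to a nearest gene was that of *Tbx3* to *Sorl1* (0.160), while *Prdm14* was nearest to *Zswim5* (0.117) and *Zfp42* to *9430038I01Rik* (0.0821). Libraries with the same number share an experiment, while library totals differed within and between experiments. For the genes in which experiment 1 stood apart, the difference between experiments enters the measure.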

How the data were processed

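PolyA+ RNA of E14tg2a.4 cells was sequenced as 100-nt paired-end reads from a stranded kit, in 12 libraries of 4 groups and 3 experiments. The authors pseudo-aligned the reads to the GENCODE M24 transcriptome with Kallisto 0.46.1 and deposited estimated counts per gene, without normalization (mm10 per the labels). The labels and methods do not state the step from transcripts to genes. Between 33.9% and 43.1% of the estimated counts of a library were not whole. After rounding they were fitted by edgeR 4.0.16 under R 4.3.3 (filterByExpr, minimum count 10 and total 15, TMM, glmQLFit with legacy=TRUE, glmQLFTest). One fit of all libraries had 4 groups and the experiment as a block, in place of the RNA processing day that the study's model used, which the labels do not give. Benjamini-Hochberg adjustment ran over all 19410 genes tested, and a gene was called where the adjusted p was under 0.05. Changes are given as log2 fold changes ± SE.

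The labels number the experiments, which the design text calls independent. After group means were removed, the 18 pairs of libraries with the same number correlated across genes at 0.255 to 0.720, and the 36 pairs with different numbers at -0.604 to 0.219, so same-numbered libraries were treated as paired. No libraries held identical values. Symbols, positions and exonic lengths came from GENCODE M21 (GRCm38), which matched 42156 of 42450 identifiers, and promoters from RefSeq (GRCm38.p6). The alternatives were DESeq2 1.42.0, limma 3.58.1 with voom, 2 other scalings (RLE factors, library totals), 2 other filters, legacy=FALSE, other blocks, time points fitted alone and fits without each library or experiment. The scripts were tested on simulated data. The members, gene lists and tests were chosen with earlier results of these data known. The text names the 10 members, *Srrm2*, list genes that were called or had the lowest or highest fold change of a list, and the nearest gene of each member by profile. *Tbx3os1* overlaps the start of *Tbx3* on the other strand. Confidence intervals cover the spread between libraries.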

Additional observations from a re-analysis of the deposited data

How the results depend on the processing

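Each log2 fold change and each count of calls over the 10 genes was recomputed under the other settings. Apart from the fits that left out libraries, 584 log2 fold changes kept their direction and their side of the threshold, 18 gained a call, 2 lost one and 6 turned. With libraries or experiments left out, 950 were kept in this way, 7 gained a call, 21 lost one and 42 turned.

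For *Srrm2* siRNA at 72 h the number of the 10 genes called was 1 with DESeq2, 2 with a replicate block for each experiment and time point and 1 with the time point fitted alone, against 0. For the mean of both times it was 2 with DESeq2 and 2 with that block. For 72 h against 24 h in Gl2-KD it was 3 with DESeq2, 2 with limma-voom, 2 when every library had to hold 10 counts and 0 with no replicate block, against 1. In Srrm2-KD it was 2 with DESeq2, limma-voom, library totals only, no filter, the filter of 10 counts per library and legacy=FALSE, and 0 with no replicate block, against 1. The genes called under these settings were *Tbx3* and *Tfcp2l1* for the siRNA and *Nr0b1*, *Nr5a2* and *Zfp42* for time. Counts over all tested genes moved too, to 542 with DESeq2 and 724 with the block for experiment and time at 72 h, against 0. Over time in Gl2-KD, against 282, they were 1338 with DESeq2, 482 with limma-voom and 476 with the filter of 10 counts per library. With legacy=FALSE they were 624, and with no replicate block 0. In Srrm2-KD, against 107, they were 1061, 259, 176, 279 and 0 in the same order. With no filter they were 212 there, and with library totals only 98. Without 1 library or experiment they ran from 0 to 387 in Gl2-KD and from 0 to 135 in Srrm2-KD. For the mean of both times, the count over all tested genes with DESeq2 is given above. It is not given here for the block for experiment and time in that mean, or for the time point fitted alone. The members called under those settings therefore have no background beside them.

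Directions turned for *Prdm14* in Gl2-KD over time with no replicate block (0.0012), for *Tbx3* in Srrm2-KD over time with limma-voom (-0.020) and with no replicate block (-0.13), and for *Zfp42* in experiment 1 with library totals only (0.080), no filter (0.019) and the filter of 10 counts per library (0.0020).

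Without 1 library or experiment, the number of called genes ranged from 0 to 1 for the mean of both times, from 0 to 2 over time in Gl2-KD and from 0 to 1 over time in Srrm2-KD. Log2 fold changes whose sign turned in such a fit ranged, at 24 h, from -0.19 to 0.046 for *Klf2* and from -0.077 to 0.029 for *Nr5a2*. At 72 h they ranged from -0.23 to 0.064 for *Klf5* and from -0.14 to 0.060 for *Nr0b1*, and in the mean of both times from -0.15 to 0.012 for *Klf5*. In the interaction they ranged from -0.17 to 0.15 for *Klf5*, -0.36 to 0.012 for *Nr5a2*, -0.057 to 0.30 for *Nr0b1*, -0.22 to 0.0068 for *Tfcp2l1* and -0.28 to 0.15 for *Prdm14*. Over time in Gl2-KD they ranged from -0.016 to 0.14 for *Esrrb* and -0.17 to 0.15 for *Prdm14*, and in Srrm2-KD from -0.14 to 0.37 for *Tbx3* and -0.18 to 0.14 for *Prdm14*. The causes were not tested.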
